A study of Mus musculus with 65 samples.

Results

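The dense LDB1 clusters are 230 stretches of the mouse genome in which LDB1 peaks followed one another at short distance. They were found in the untreated LDB1-AID subline of G1E-ER4, a mouse erythroblast line, by sorting the 10729 LDB1 peaks of chromosomes 1 to 19 and X by start and chaining neighbours whose starts lay at most 25 kb apart. Of the 6401 chains this gave, those of 5 or more peaks were kept. They held 1422 LDB1 peaks, 13.3% of all. The other peaks were 4043 solitary ones and 5264 in 2128 chains of 2 to 4. Number of peaks, spacing and span were fixed by this rule and are given as a description only.

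The series used chromatin immunoprecipitation followed by sequencing (ChIP-seq) to map LDB1, cohesin, CTCF, YY1, RNA polymerase II and H3K27ac, beside input libraries, and it covers 65 samples in 29 groups, of which 22 samples in 9 groups are used here. In the LDB1-AID subline, untreated cells were profiled for LDB1, RAD21, YY1 and CTCF, and cells given auxin for 4 h were profiled for LDB1. In the SMC3-AID subline, untreated cells and cells given auxin for 4 h were profiled for LDB1 and RAD21. All groups are sublines of the same line, described in the labels as erythroblasts, and whether each subline is 1 clone is not stated in the labels. AID is the auxin-inducible degron, a tag that leads to breakdown of the tagged protein once auxin is added. Each group came as 1 list of 400 bp peaks into which the authors had combined 2 replicates (LDB1-AID) or 3 (SMC3-AID). The values therefore have no replicate error, and the depth is unknown. Intervals below are 95% intervals for counting error only, and peaks of 1 cluster share their surroundings, so they are not independent of each other.

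LDB1 does not bind DNA itself. In erythroid cells it is brought to enhancers and promoters by complexes with GATA1 and TAL1, and it can join with itself, through which distant elements such as the beta-globin locus control region are held near their genes. RAD21 and SMC3 are subunits of cohesin, the ring complex that extrudes chromatin loops. CTCF is the zinc finger protein at which cohesin halts, and YY1 is a zinc finger protein found at many enhancers and promoters.

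Most calls of the depleted complexes were gone from the lists after auxin. LDB1 peaks on chromosomes 1 to 19 and X numbered 1043 after auxin in LDB1-AID cells, and RAD21 peaks went from 15223 to 24 in SMC3-AID cells. None of these 24 lay in a dense cluster, and 2 of all 10729 LDB1 peaks (0.0186%) overlapped one. The spans of the clusters held 255 of the 15223 RAD21 peaks before auxin (1.675%). With only 24 peaks left, nothing is read from the count of 0. Untreated LDB1-AID cells had 33160 RAD21, 12816 YY1 and 54223 CTCF peaks on the same chromosomes, and LDB1 peaks in SMC3-AID cells numbered 8585 before and 7237 after auxin.

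The clusters were mostly of 5 peaks (109 clusters) or 6 (54 clusters). There were 26 of 7, 19 of 8, 13 of 9, 4 of 10, 1 of 11, 1 of 12 and 3 of 13. The median span was 43.4 kb, with quartiles of 29.5 and 58.4 kb and a range from 9.485 to 132.9 kb. Within clusters the 1192 pairs of neighbours lay a median of 6604.5 bp apart, from 574 to 24986 bp. Only 27 pairs were more than 24 kb apart and only 39 were within 1 kb. Outside, 48 clusters had another LDB1 peak 25 to 30 kb away and 130 had one within 50 kb. All 20 chromosomes carried clusters. The share of LDB1 peaks that lay in clusters was highest on chromosome 19, with 96 of 437 (22.0%, 18.3 to 26.1), and lowest on X, with 10 of 195 (5.13%, 2.81 to 9.18).

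The 9 largest clusters held 10 or more LDB1 peaks, and they differed widely in length and content. Positions are in mm9, the build named in the submitters' processing notes, counted from 1. No annotation of that build was used, so the clusters are not assigned to genes. The cluster at chr12:78157757-78201112 had 13 LDB1 peaks in 43.4 kb, 8 of them with RAD21, 6 with YY1 and 1 with CTCF. A further 5 RAD21 and 6 YY1 peaks lay in the same span away from LDB1. The 13 peaks at chr8:124808472-124873759 spread over 65.3 kb, and RAD21 was present at 4, YY1 at 4 and CTCF at 1. This region was dotted with 7 more CTCF peaks off LDB1, and a CTCF peak flanked it at 2.133 kb on one side and 4.881 kb on the other. The 13 peaks at chr11:11700831-11795857 spread over 95.03 kb. Of these, 4 had RAD21, 4 had YY1 and 2 had CTCF. Its CTCF flanks were uneven, at 9.492 kb and 77.5 kb.

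The cluster of 12 peaks at chr1:152976139-153062655 spanned 86.5 kb without any CTCF peak. RAD21 nevertheless lay at 7 of its LDB1 peaks, and YY1 at 1. The 11 peaks at chr13:96400755-96483288 covered 82.5 kb, and 7 of them had RAD21, 2 had YY1 and none had CTCF, though 2 CTCF peaks stood between them. Of the clusters with 10 peaks, chr10:111009153-111040608 was the most compact, at 31.5 kb, with RAD21 at 2, YY1 at 3 and no CTCF on LDB1. The cluster at chr1:36927301-37000940 spanned 73.6 kb and had YY1 at 5 of its 10 peaks, RAD21 at 3 and CTCF at 2. The cluster at chr19:29434657-29514190 spanned 79.5 kb and carried RAD21 at 6 peaks, YY1 at 4 and CTCF at 1 of them. The cluster at chr17:35878772-36011435 spread 10 LDB1 peaks over 132.7 kb among 23 CTCF peaks, the highest number in any cluster. Only 2 of those CTCF peaks coincided with LDB1.

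**Figure D1:**
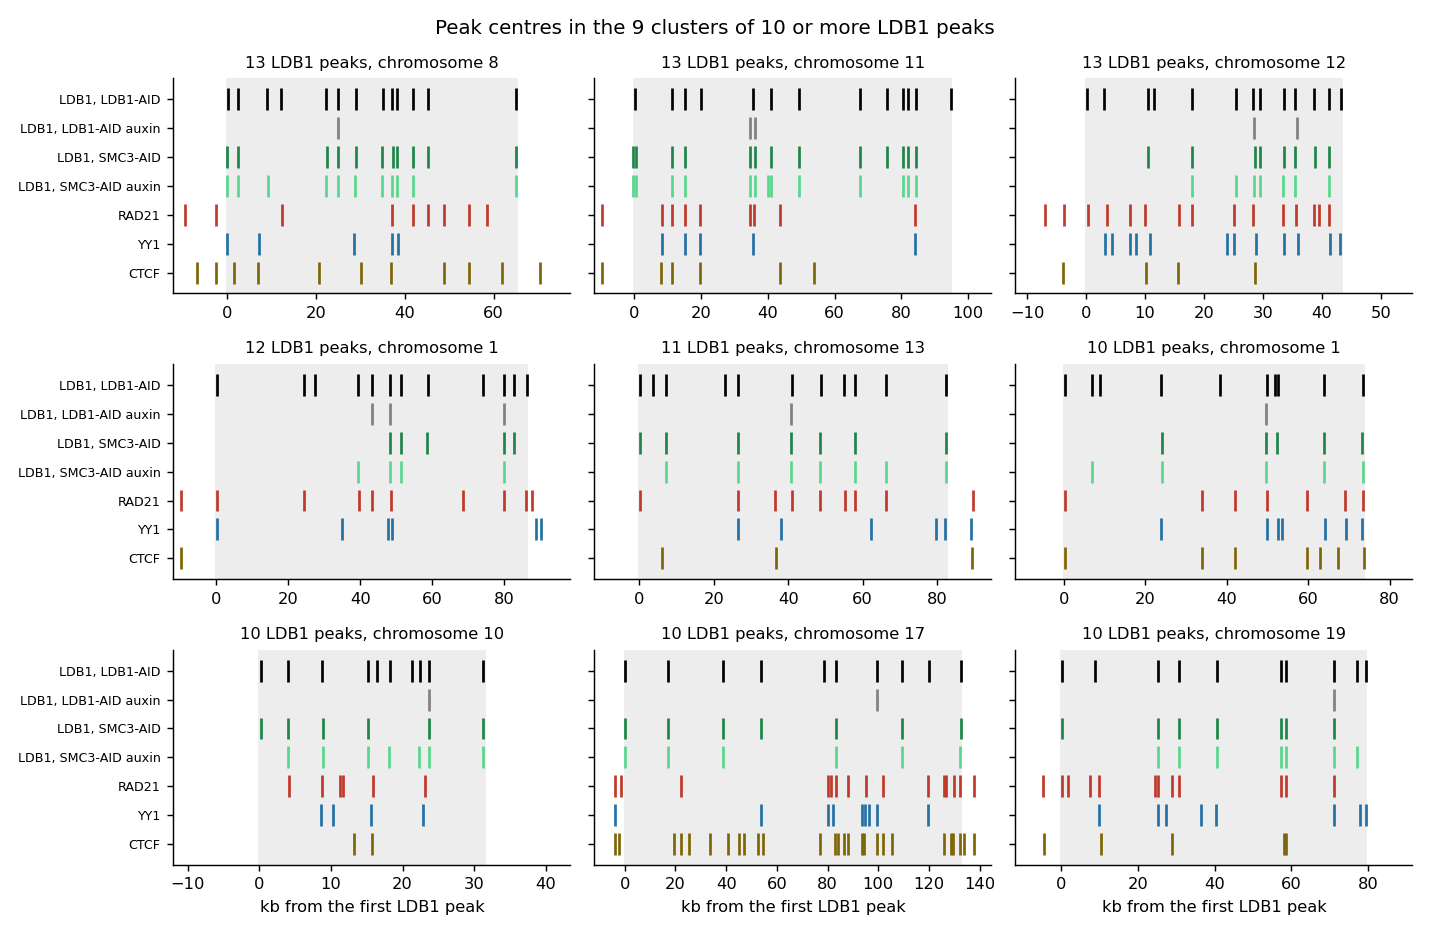
Centres of the peaks of each list in the 9 clusters of 10 or more LDB1 peaks and 10 kb on either side, in kb from the start of the first LDB1 peak, with the cluster span in grey and the LDB1 lists of SMC3-AID cells in green. RAD21 ticks recur beneath many LDB1 ticks, CTCF ticks mostly fall between them, and the LDB1 list after auxin in LDB1-AID cells leaves at most 3 ticks in a span.

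Cohesin was the protein most often found with LDB1 in the clusters. RAD21 lay at 568 of the 1422 clustered LDB1 peaks, 39.9% (37.4 to 42.5), where the background over all LDB1 peaks was 25.1%. Solitary LDB1 peaks had RAD21 in 17.98% (16.8 to 19.2), so the clustered ones were higher by 22.0 percentage points (19.2 to 24.8). Against chains of 2 to 4, at 26.6%, the difference was 13.3 points (10.5 to 16.1). The share ran 17.98, 23.8, 29.4 and 29.9% for chains of 1, 2, 3 and 4 peaks, and 40.2, 32.7 and 43.9% for chains of 5, 6 and 7 or more. Just inside the threshold of 5 the share was 40.2% and just outside it, at 4, it was 29.9%. Chains of 6 lay below those of 5, with overlapping intervals (27.8 to 38 and 36.2 to 44.4).

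Most of this cohesin was without CTCF, the site where cohesin is usually found. RAD21 without CTCF marked 34.5% of clustered LDB1 peaks, 13.3% of solitary ones and 20.1% of all. Among LDB1 peaks that had RAD21, CTCF was also present at 77 of 568 in clusters (13.6%) and at 190 of 727 solitary peaks (26.1%), a difference of -12.6 points (-16.8 to -8.25). The RAD21 list of untreated SMC3-AID cells, which is shorter, gave a smaller difference in the same direction. It marked 7.74% of clustered LDB1 peaks, 3.54% of solitary ones and 4.7% of all, a difference of 4.20 points (2.78 to 5.79).

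The difference was smaller for YY1. It lay at 354 clustered LDB1 peaks, 24.9% (22.7 to 27.2), against a background of 20.4% and against 17.0% of solitary peaks, a difference of 7.93 points (5.45 to 10.5). Against chains of 2 to 4, at 21.9%, it was 3.05 points (0.59 to 5.61). Chains of 4 and of 5 peaks had 24.3 and 23.7%, whose difference of -0.68 points has an interval of -5.11 to 3.92. Where RAD21 was present, YY1 accompanied it at 35.7% of clustered and 34.8% of solitary LDB1 peaks, a difference of 0.94 points (-4.28 to 6.19). Where RAD21 was absent the shares were 17.7 and 13.1%, a difference of 4.62 points (1.93 to 7.54). RAD21 and YY1 together marked 14.3% of clustered LDB1 peaks, 6.26% of solitary ones and 9% of all.

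For CTCF no difference beyond counting error was seen. It lay at 94 of them, 6.61% (5.43 to 8.02), beside a background of 7.4% and 7.40% of solitary peaks, and the difference of -0.79 points has an interval of -2.24 to 0.82. LDB1 peaks with none of the 3 proteins made up 48.5% of the clustered and 68.9% of the solitary peaks, where the background was 61.5%. This was a difference of -20.4 points (-23.3 to -17.4).

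**Figure D2:**
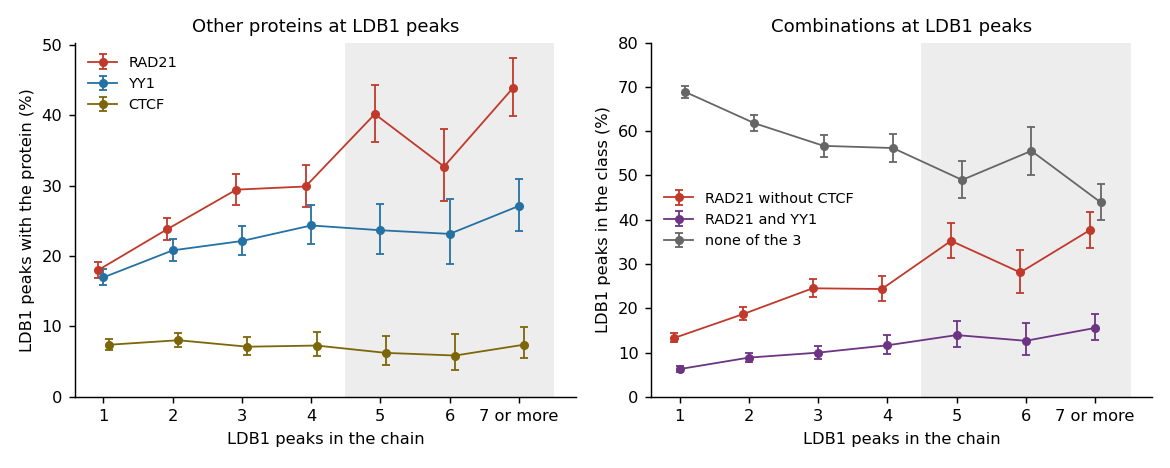
Percent of LDB1 peaks that overlap a peak of RAD21, YY1 or CTCF (left) or of a combination of them (right), by the number of LDB1 peaks in the chain, with Wilson 95% intervals and the dense clusters shaded. RAD21 goes from 17.98% of solitary peaks to 43.9% in chains of 7 or more, while CTCF stays between 5.86 and 8.04%.

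Counted per cluster, RAD21 lay at 1 or more LDB1 peaks in 196 of the 230 (85.2%, where 51.1% of all chains of 2 or more had it) and at 2 or more in 164. In 84 clusters (36.5%) at least 50% of the LDB1 peaks had it, in 4 (1.74%) all had it, and in 34 (14.8%) none did. Of the 2128 chains of 2 to 4, 15.2% had it at 2 or more, 34.6% at 50% or more, 7.14% at all and 52.6% at none. YY1 was present in 181 clusters (background 46.8%) and CTCF at an LDB1 peak in 80 (background 18.9%), 68 of them with only 1 such peak. The backgrounds are over 2358 chains, of which 2128 have 2 to 4 peaks. A longer chain has more chances to hold such a peak, so nothing is read from these counts against their backgrounds. In 13 clusters (5.65%) no LDB1 peak had any of the 3 proteins, against 32.8% of chains of 2 to 4, and nothing is read from this either.

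RAD21 was unevenly spread among clusters. A clustered LDB1 peak next to one with RAD21 carried RAD21 itself in 51.6% of cases, and next to one without it in 32.3%. For YY1 the same shares were 28.9 and 23.3%, and for CTCF 6.49 and 6.46%. In chains of 2 to 4 the RAD21 shares were 38.2 and 23.1%. These are descriptions over pairs that share peaks. In 4 clusters every LDB1 peak had RAD21. The one with the most LDB1 peaks was chr9:60215603-60266628, where all 6 LDB1 peaks in 51.0 kb had RAD21 and none had YY1 or CTCF. Its nearest CTCF peaks outside were 83.9 and 65.1 kb away. All 5 LDB1 peaks at chr2:78918918-78972044 also had RAD21, and 4 had YY1, the highest YY1 share of the 230, which 2 other clusters of 5 shared.

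A split made after values had been seen set apart the 84 clusters with RAD21 at 50% or more of their LDB1 peaks. By medians, these had CTCF farther from their ends and sparser in their spans than the 34 without RAD21. For both medians the intervals of the 84 and of the 34 overlapped. From an end of a RAD21-rich cluster the nearest CTCF peak outside was a median of 24.0 kb away (16.6 to 32.2). It was 9.71 kb (5.06 to 16.8) for the clusters without RAD21 and 9.98 kb (7.75 to 12.8) for the 112 in between. Inside, the median number of CTCF peaks per 10 kb was 0.318 (0.242 to 0.413) in RAD21-rich clusters, 0.607 (0.335 to 0.857) in those without and 0.621 (0.513 to 0.695) in those between. On the LDB1 peaks themselves CTCF did not follow this order. It lay at 35 of 535 in RAD21-rich clusters (6.54%), at 55 of 695 in those between (7.91%) and at 4 of 192 in those without RAD21 (2.08%). The RAD21-rich clusters and those without RAD21 differed by 4.46 points (0.83 to 7.19). YY1 marked 28.0% of the LDB1 peaks in RAD21-rich clusters and 15.1% in those without RAD21, a difference of 12.9 points (6.13 to 18.8). No LDB1 peak in clusters without RAD21 can have RAD21 together with CTCF or YY1. The split itself thus lowers their shares, and nothing is read from these 2 differences.

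The extremes in the other direction were also named by rule. At chr5:114351969-114453609, 7 LDB1 peaks over 101.6 kb had none of the 3 proteins, although 11 CTCF and 9 RAD21 peaks lay between them. At chr8:87223799-87255046, CTCF lay at 3 of 5 LDB1 peaks, the highest CTCF share of any cluster, and 5 further CTCF peaks filled the 31.2 kb. The shortest cluster, chr4:115520816-115530300, put 5 LDB1 peaks into 9.485 kb with YY1 at 1 and no RAD21 or CTCF peak in its span. The longest, chr2:6185049-6317925, held 9 LDB1 peaks over 132.9 kb without a CTCF peak inside, and RAD21 lay at 6 of the 9. A CTCF peak stood 0.536 kb beyond one of its ends and 8.447 kb beyond the other.

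CTCF stood inside most clusters. A CTCF peak lay in the span of 189 clusters (82.2%, 76.7 to 86.6), where the background over chains of 2 or more was 54.6%. The median was 2 per cluster and 41 had none. Clusters are longer than short chains, so the number per length is the nearer comparison. Counting all peaks over the summed 10.6 Mb of span, clusters held 0.556 CTCF peaks per 10 kb, against 0.653 in chains of 2 to 4. RAD21 had 0.902 per 10 kb against 0.798, and YY1 0.5876 against 0.5996. Spans start and end on LDB1 peaks, of which clusters had a median of 1.35 per 10 kb and chains of 2 to 4 had 1.96. Densities that count peaks on LDB1 also depend on this. Off LDB1 the densities per 10 kb were 0.367 and 0.344 for RAD21, 0.255 and 0.227 for YY1, and 0.467 and 0.523 for CTCF. A CTCF peak stood between 29.4% (26.9 to 32.1) of neighbouring LDB1 peaks in clusters and 33.6% (32.0 to 35.3) in chains of 2 to 4. Where neighbours lay under 2 kb apart the shares were 4.28% (2.18 to 8.21) and 3.89% (2.47 to 6.06), and at 2 to 5 kb they were 17.0% (13.01 to 21.8) and 15.5% (12.9 to 18.5). Where neighbours lay 5 to 10 kb apart the shares were 25.4% (20.8 to 30.6) and 32.9% (29.6 to 36.4), and at 10 to 25 kb they were 51.5% (46.8 to 56.3) and 54.0% (51.3 to 56.7).

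Beyond the ends, the median distance to CTCF was that of shorter chains. The nearest CTCF peak outside was a median of 13.7 kb from a cluster end (11.4 to 16.1, 460 ends), and 13.7 kb (12.9 to 14.6) from the ends of chains of 2 to 4. Within a cluster the nearer side had a median of 5995 bp and the farther side 27.1 kb. The 2 flanking CTCF peaks lay a median of 85.0 kb apart. CTCF stood within 25 kb on both sides of 106 clusters, 46.1% (39.8 to 52.5), against 48.4% (46.3 to 50.5) of chains of 2 to 4, and on neither side of 37, 16.1% against 15.5%. CTCF with RAD21 stood within 25 kb on both sides of 54, 23.5% against 24.5%. CTCF off LDB1 had 0.467 peaks per 10 kb inside the clusters, 0.580 in the first 10 kb outside and 0.478 to 0.528 from 10 to 50 kb. RAD21 off LDB1 had 0.367 inside, 0.502 in the first 10 kb and 0.363 to 0.387 farther out. YY1 off LDB1 declined from 0.255 inside to 0.230 in the first 10 kb and 0.139 in the next. Leaving out peaks on LDB1 lowers the inside values and not those of the first 10 kb outside, where the rule leaves no LDB1 peak. With such peaks counted, the inside values were 0.556 for CTCF and 0.902 for RAD21. Off LDB1, chains of 2 to 4 had CTCF at 0.523 inside and 0.573 in the first 10 kb, and RAD21 at 0.344 and 0.394. Nothing is read from the steps at the cluster ends.

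**Figure D3:**
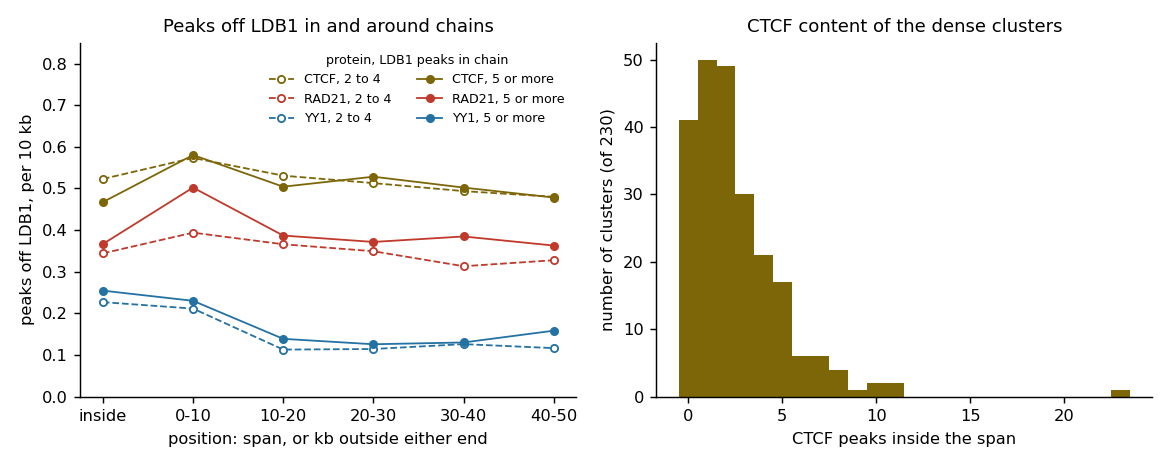
Left, peaks of CTCF, RAD21 and YY1 that are not on an LDB1 peak, per 10 kb, inside the span and in 10 kb windows outside either end, for dense clusters (filled) and chains of 2 to 4 (open). Right, number of clusters by the number of CTCF peaks in the span. CTCF off LDB1 is lower inside the clusters (0.467) than in the first 10 kb outside (0.580), and 41 clusters have no CTCF peak while 1 has 23. With CTCF peaks on LDB1 counted, the inside value is 0.556. Chains of 2 to 4 show the same order off LDB1 (0.523 and 0.573).

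After depletion of LDB1, scattered calls remained in the clusters. LDB1 was called again at 141 of the 1422 clustered peaks, 9.92% (8.47 to 11.6), beside a background of 7.77% and 7.17% of solitary peaks. The difference was 2.74 points (1.07 to 4.57). At least 1 was kept in 107 clusters (46.5%, background 20.5% of chains of 2 or more, from which nothing is read since a longer chain has more chances). In the other 123 no LDB1 peak was kept, in 80 there was 1, in 20 there were 2 and in 7 there were 3. The longest chain in the auxin list, by the same 25 kb rule, had 4 peaks. A counterpart of 5 or more was thus present for 0 dense clusters and for 0 of all 6401 chains. With only 1043 peaks in that list, nothing is read from this. The 12 peaks at chr1:152976139-153062655 kept 3, and this cluster was named as the one with the most LDB1 peaks among the 7 that kept 3. All 13 peaks at chr11:11700831-11795857 and all 9 of the longest cluster were without a call after auxin. Of the 151 auxin calls within cluster spans, 10 did not lie on an untreated LDB1 peak, 2 of them at chr11:11700831-11795857.

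Retention differed with the proteins found at an LDB1 peak. Where RAD21 was present, 111 of 568 clustered peaks (19.5%) and 144 of 727 solitary peaks (19.8%) were kept, a difference of -0.27 points (-4.58 to 4.15). Where it was absent, 3.51 and 4.40% were kept, a difference of -0.89 points (-2.18 to 0.70). The higher share in clusters was not seen within either RAD21 class. It was seen without YY1, at 6.27 and 4.71%, a difference of 1.57 points (0.05 to 3.32), and among LDB1 peaks called in untreated SMC3-AID cells, at 13.1 and 8.83%, a difference of 4.30 points (2.01 to 6.79). With YY1 the shares were 20.9 and 19.2%, a difference of 1.66 points (-3.34 to 6.98). Clustered LDB1 peaks that had RAD21 together with YY1 and lacked CTCF were kept most often among the classes of 50 or more peaks, at 56 of 176 (31.8%, 25.4 to 39.0). Those with RAD21 alone were kept at 13.02% (9.74 to 17.2), those with YY1 alone at 7.48% (4.23 to 12.9), and those with none of the 3 at 18 of 690 (2.61%, 1.66 to 4.09). RAD21-rich clusters kept 13.1% of their LDB1 peaks and clusters without RAD21 kept 3.65%, a difference of 9.44 points (4.93 to 13.1). These classes were made from RAD21 at the same LDB1 peaks, so this is not separate from the difference by RAD21 at the peak. Peak height is unknown, and its part in these shares was not tested.

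**Figure D4:**
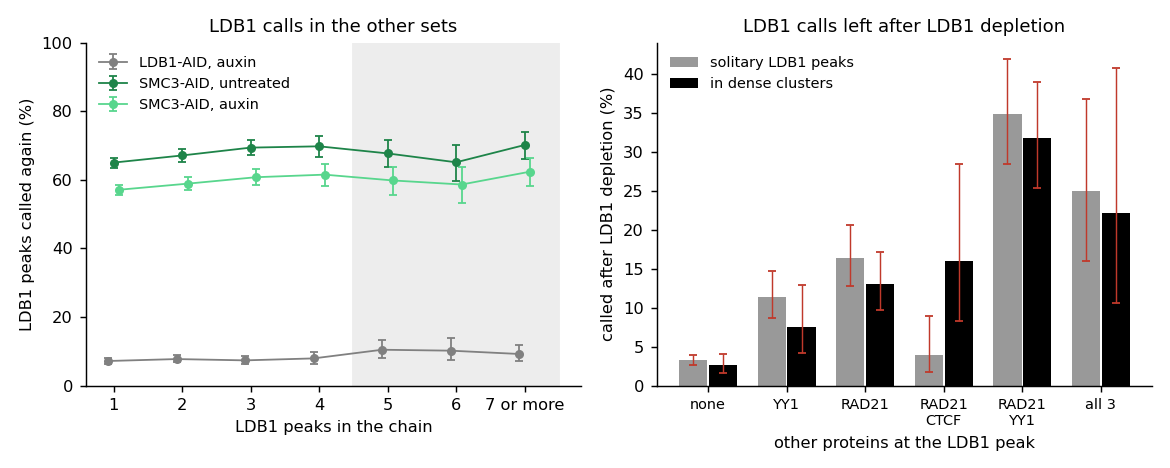
Left, percent of untreated LDB1-AID LDB1 peaks that were called again in the other LDB1 lists, by the number of LDB1 peaks in the chain, with the dense clusters shaded. Right, percent called after LDB1 depletion by the other proteins at the peak, for solitary peaks (grey) and dense clusters (black). Error bars are Wilson 95% intervals. Retention is highest with RAD21 and YY1 in both kinds of peak (34.9 and 31.8%).

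In the SMC3-AID subline, clustered LDB1 peaks were called at a share near the background. Untreated SMC3-AID cells had LDB1 at 968 of the 1422, 68.1% (65.6 to 70.4), where the background was 67%. Solitary peaks had 65.0%, a difference of 3.05 points (0.18 to 5.85), and chains of 2 to 4 had 68.3%, a difference of -0.22 points (-2.99 to 2.47). The interval of the difference from solitary peaks included 0 under 5 of 9 other settings of the rule or overlap. Without RAD21 the share was 61.9% in clusters and 63.2% at solitary peaks, a difference of -1.27 points (-4.95 to 2.34), and with RAD21 it was 77.3 and 73.3%, a difference of 3.97 points (-0.79 to 8.63). With YY1 it was 79.4 and 71.7%, a difference of 7.66 points (2.10 to 12.9), and without YY1 64.3 and 63.7%, a difference of 0.67 points (-2.67 to 3.93). Calls were more frequent inside a cluster than at its ends. Inner peaks were called in 70.8% (67.8 to 73.6) and first or last peaks in 62.4% (57.9 to 66.7), a difference of 8.40 points (3.18 to 13.7). For RAD21 the same shares were 40.1 and 39.6%, a difference of 0.56 points with an interval of -4.91 to 5.93. The rule decides which peaks are first or last, and shorter chains were not compared in this way.

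Depletion of SMC3 left most LDB1 calls of the clusters in place. Of the 968 called before auxin, 813 were called after it, 84.0% (81.5 to 86.2), beside a background of 83.3%. Solitary peaks kept 83.4%, and the difference of 0.61 points has an interval of -2.19 to 3.24. Counting every clustered peak, LDB1 was called at 861 after auxin, 60.5% (57.98 to 63.1), where the background was 59%. In 109 clusters every call of the untreated cells was kept, and 87, 31 and 2 clusters lost 1, 2 and 3 calls. The total of calls was lower after auxin in 100 clusters, equal in 108 and higher in 22. Every call was kept in 47.4% of clusters and 65.7% of chains of 2 to 4, and fewer calls after auxin were found in 43.5 and 24.7%. These shares also change with the number of peaks in a chain, and nothing is read from them. By their other proteins, clustered peaks that had RAD21 together with YY1 and lacked CTCF kept 141 of 148 (95.3%, 90.6 to 97.7). Those with RAD21 alone kept 85.2% (80.2 to 89.2) and those with YY1 alone 98 of 111 (88.3%, 81.0 to 93.0). Those with none of the 3 kept 77.7% (73.4 to 81.5). At solitary peaks the same classes kept, in this order, 92.2, 88.9, 86.0 and 81.0%. Clusters rich in RAD21 kept 82.5% and clusters without it 81.7%, a difference of 0.80 points (-6.27 to 9.08).

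The clusters at either end of this scale were few. At chr17:48406986-48481668, 5 of 7 LDB1 peaks were called in untreated SMC3-AID cells and 2 after auxin, the largest loss together with 1 other cluster. At chr12:76825029-76882800, none of the 5 LDB1 peaks was called in untreated SMC3-AID cells and 1 was called after auxin. It was the only cluster without a call in the untreated cells, and all 230 had at least 1 call after auxin. Of chains of 2 to 4, 8.51% had no call in the untreated cells and 85.6% had at least 1 after auxin. In chains of 4 these shares were 0.43 and 98.3%. A longer chain has more chances of a call, so nothing is read from these counts. Of the 13 peaks at chr8:124808472-124873759, 11 were called in each SMC3-AID list, and 10 of the 11 before auxin were kept. At chr12:78157757-78201112, 8 of 13 were called before auxin and 7 after, while at chr1:152976139-153062655 only 5 of 12 were called before and 4 after. In 10 clusters every LDB1 peak was called in both lists, a count that also depends on the number of peaks in a chain.

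**Figure D5:**
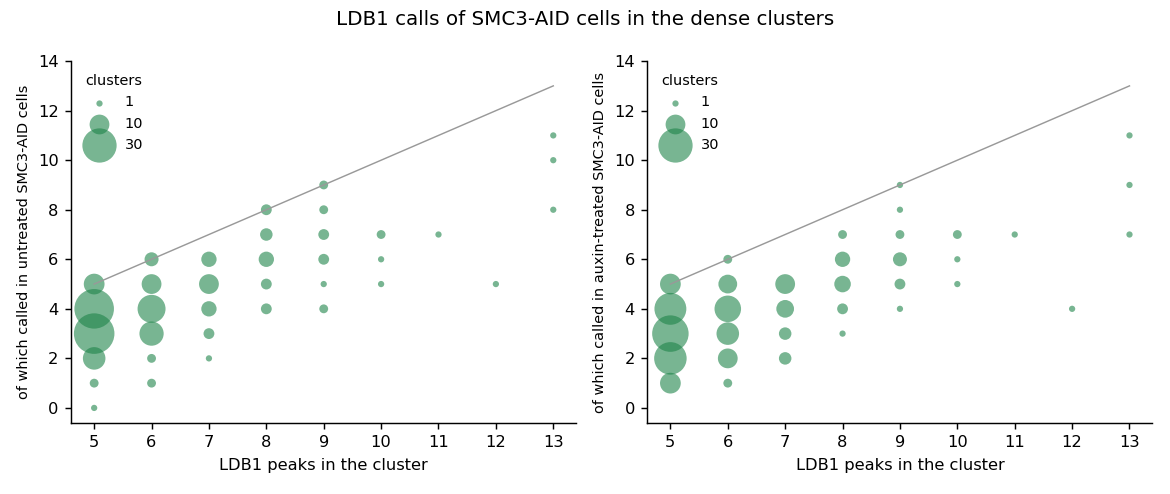
Number of LDB1 peaks of each cluster that were called in untreated (left) and auxin-treated (right) SMC3-AID cells, against the number of LDB1 peaks in the cluster, with the area of a point giving the number of clusters and the line marking equality. Points lie on the line for 21 clusters before auxin and 14 after, and at 0 for 1 cluster before auxin and none after.

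The clustering itself was seen in part in the SMC3-AID lists. When the same rule was applied to their own LDB1 peaks, untreated SMC3-AID cells gave 101 clusters of 5 or more. Of these, 81 overlapped a dense cluster, and 81 of the 230 dense clusters had such a counterpart (35.2%, 29.3 to 41.6, against 1.69% of all chains). After auxin there were 64 clusters, of which 56 overlapped, and 56 dense clusters had a counterpart (24.3%, 19.3 to 30.3, against 1.03%). A counterpart was present in both lists for 48 dense clusters, only before auxin for 33, only after auxin for 8 and in neither for 141. The lists differ in length, which bears on these counts. The shares of all chains are over 6401 chains, of which 4043 are solitary peaks, and they include the dense clusters. Overlap with a cluster of 5 or more also has more chances in a longer chain. Nothing is therefore read from the shares of dense clusters against those of all chains. The 81 dense clusters with a counterpart before auxin held 7.07 LDB1 peaks each and the other 149 held 5.70. A cluster with more LDB1 peaks has more chances of a counterpart, so nothing is read from this difference in size. RAD21 lay at 42.4 and 38.3% of their LDB1 peaks, and 9.25 and 10.4% of their LDB1 peaks were kept after LDB1 depletion. These shares are given without intervals.

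Fewer RAD21 peaks were called in the spans in SMC3-AID cells. The clusters held 959 RAD21 peaks of untreated LDB1-AID cells and 255 of untreated SMC3-AID cells, the latter in 143 clusters, while the lists as a whole numbered 33160 and 15223. After auxin the SMC3-AID list had 0 RAD21 peaks in any of the 230 spans, but it held only 24 on these chromosomes, so nothing is read from this. Of the 7237 LDB1 peaks of the same cells, 886 lay in the spans.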

How the data were processed

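Reads were processed by the authors, and Bowtie2, MACS2 2.2.9.1, deepTools 3.5.1 and the build mm9 are named in the submitters' processing notes, without their roles. The consensus rule and thresholds are not given in the sources used here. The deposited lists hold positions in bp (chromosome, start, end) with no score, and every interval is 400 bp wide. Groups came from sample titles. Peaks on chromosomes 1 to 19 and X were used. An LDB1 peak was counted with a protein, or as called again ("kept"), when at least 1 bp overlapped. Shares have Wilson intervals, differences Newcombe intervals and medians order-statistic intervals, all at 95%. With 1 list per group no test was made. The background is the share over all LDB1 peaks, or over chains where stated. Regions named are clusters of 10 or more LDB1 peaks and the extremes of length, protein content and LDB1 calls, with none from chromosome 18. Members and lists were chosen with earlier results of these data known. Chaining was tested on simulated data (500 of 500 chains recovered, and 4 overlaps called beyond the 943 planted), and overlap counts were checked against bedtools 2.31.1 (difference 0). Python 3.11.15, NumPy 2.4.6 and SciPy 1.17.1 were used.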

Additional observations from a re-analysis of the deposited data

Results flagged for a closer look

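Some LDB1 peaks lay outside the chromosomes or clusters described. On the unplaced contig of chromosome 9, left out above, there were 7 LDB1 peaks in untreated LDB1-AID cells and 4 in untreated SMC3-AID cells. The rule for clusters, applied to the SMC3-AID lists, also found clusters where untreated LDB1-AID cells had no LDB1 peak at all. One, at chr3:58908401-58959274, had 5 LDB1 peaks in untreated SMC3-AID cells over 50.9 kb, of which 4 were called after auxin, with 1 RAD21 and 1 CTCF peak in the span. The other, at chr8:35789093-35846768, had 6 LDB1 peaks in auxin-treated SMC3-AID cells over 57.7 kb and no RAD21, CTCF or YY1 peak. The largest cluster of untreated SMC3-AID cells, chr9:3000606-3038252, had 18 LDB1 peaks, of which 13 were called after auxin. Its span held 2 LDB1 and 2 YY1 peaks of untreated LDB1-AID cells and no RAD21 or CTCF peak, and it overlapped no dense cluster. Without chromosome 9 below 3.1 Mb, the share of dense clusters with a counterpart stayed at 35.2%.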

How the results depend on the processing

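Of 106 alternative values for 11 results, 81 stayed within the interval of the reported value (counts within 1.5-fold), 22 moved, and 3 more changed sign where the reported interval excludes 0. Of those counted among the 81 and the 22, 4 also changed sign, where the reported interval includes 0. The CTCF difference at 50 kb was among the 22 that moved. The difference kept after SMC3 depletion was among the 81, with -1.01 at 50 kb, -1.03 with RAD21 and -1.76 without. With starts at most 10 kb apart there were 55 clusters and with 50 kb 495, and with at least 4 or 6 peaks 460 and 121. The RAD21 difference from solitary peaks was 16.2 points at 10 kb, 18.01 with at least 4 peaks, 4.20 with the RAD21 list of SMC3-AID cells and 25.1 among LDB1 peaks called in untreated SMC3-AID cells. The YY1 difference was 11.4 points with a gap of up to 1 kb, 0.94 with RAD21 and 4.62 without. The CTCF difference was 1.21 points at 50 kb and -12.6 among peaks with RAD21. The difference kept after LDB1 depletion was -0.27 with RAD21 and -0.89 without. The difference called in untreated SMC3-AID cells was 6.53 with the gap allowed and -1.27 without RAD21. CTCF lay in the span of 67.3% of clusters at 10 kb, 92.3% at 50 kb and 87.6% with at least 6 peaks. Counterparts in untreated SMC3-AID cells were 41.8% at 10 kb, 47.7% at 50 kb and 47.4% with at least 4 peaks, and after auxin 34.1% at 50 kb and 35.4% with at least 4 peaks. The causes were not tested. The classes by RAD21, the restriction to peaks called in SMC3-AID cells and equal weight per cluster were chosen after seeing the data. No paired analysis was possible because each group came as 1 combined list, and for the same reason no replicate could be left out. Without depth or peak height, a missing call does not show absence of the protein.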
